A study of Acanthocheilonema viteae with 2 samples.

Results

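The bantam/miR-58 family was followed in the small RNA that adult Acanthocheilonema viteae, a filarial nematode of rodents, released into culture medium. Secretions of females gave 1 library and those of males gave 1. Both came from adult worms kept at 1 to 2 worms per ml of antibiotic-treated RPMI-1640 for as long as 3 weeks. A filter with pores of 0.22 um was used for both. The RNA was taken from a washed pellet spun at 100000 x g, which collects vesicles and other particles outside cells. In such secretions of many worms, fewer contributing cells and less RNA per cell cannot be told apart, and because no library was replicated every ratio compares these 2 libraries, with 95% intervals that cover counting error only. Family entries were the rows with a nematode species code and bantam, miR-58, miR-80, miR-81 or miR-82 in the name, plus the predicted candidate PC-3p-100_2763, which begins like miR-81. This gave 4 of the 384 deposited entries, namely asu-miR-81a, asu-miR-81b-3p_1ss18TC, cel-miR-80-5p_1ss13GC and the candidate. No row was named bantam, miR-58 or miR-82, nor miR-1834 or miR-2209, further members of the family in Caenorhabditis elegans. A species code tells which known miRNA a sequence resembles (asu for Ascaris suum, bma for Brugia malayi, cel for C. elegans) and does not prove the origin of the RNA.

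MicroRNAs are cut as a short duplex from a hairpin. The strand that is kept guides a silencing complex to messenger RNAs, which it finds mostly through its seed, bases 2 to 8, and the strand from the other arm of the hairpin is usually discarded. Members of this family carry their guide on the 3p arm. In Drosophila, bantam promotes tissue growth and blocks programmed cell death. In C. elegans, miR-58, miR-80, miR-81 and miR-82 are abundant and act redundantly, worms that lack all of them are small and lay eggs poorly, and the family lowers components of the TGF-beta pathways that set body size and dauer entry. miR-80 of C. elegans also restrains the response to food shortage.

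The sequences of the family show which members can share targets, and the deposited ones are given here with the seed in capitals.
asu-miR-81a: tGAGATCAttgtgaaagctatt
asu-miR-81b-3p_1ss18TC: tGAGATCAtgccacatccgtct
PC-3p-100_2763: tGAGATCAcgttacatccgcct
cel-miR-80-5p_1ss13GC: aGCTTTCGacatcattctgaac
The first 3 sequences had the same seed, and cel-miR-80-5p_1ss13GC, named for the opposite arm of its hairpin, had another that no other row shared. All 4 were 22 nt long. Past the seed the 3p members fell into a pair and a single sequence. miR-81b and the candidate matched at 18 of 22 bases, differing by T9C, C11T, C12T and T20C when counted from the 5′ end with the base of miR-81b first. They matched at all 4 of bases 13 to 16, the stretch that most often adds pairing to a target outside the seed. miR-81a matched each of them at 12 of 22 bases, and at 1 of the 4 bases 13 to 16. With the names set aside, the candidate was therefore nearer in sequence to miR-81b than miR-81b was to miR-81a. No mammal-named row shared even bases 2 to 7 of this seed, and no member's sequence stood on a second row, so the members' reads were whole and undivided.

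A further pair of rows belonged beside the family without meeting the rule. They are shown because PC-3p-32064_10 carries the seed and bma-mir-81-p5_1ss12AG is named for the opposite arm of a miR-81 hairpin.
PC-3p-32064_10: tGAGATCAtgccacatccgtcc
bma-mir-81-p5_1ss12AG: aGGCCTTCaccgtgatctacaga
PC-3p-32064_10 was the only row outside the family with its seed, and it differed from miR-81b by T22C alone, the last base. The row bma-mir-81-p5_1ss12AG is spelled with a small r and p5. The table held 16 nematode-named rows spelled so with p5 or p3, and this one is not counted among the 4 entries.

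The miR-81 members were abundant in the secretions of both sexes, and miR-81a led the family in each. Over the deposited entries the libraries held 292740 female and 74881.3 male reads. The 4 entries summed to 14797 reads in the female library, 5.05% (4.98 to 5.13), and to 3118 in the male, 4.16% (4.02 to 4.31). The rest of the libraries differed far more. Mammal-named entries made up 6.71% of the reads in the female library and 51.4% in the male, and their part in the ratios was not tested, so each value is also given per worm read, meaning a read of a nematode-named or candidate entry. Per worm read the family took 5.42% (5.33 to 5.50) of the female and 8.57% (8.29 to 8.87) of the male library. The female-to-male ratio of the family was thus 1.21 (1.17 to 1.26) when all reads were counted and 0.632 (0.608 to 0.657) per worm read, and its side depended on the scale. The authors' normalized values gave 5.67.

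Grouped by seed, the nematode-named and candidate entries formed 97 families, and the miR-81 seed had rank 3 by reads in both libraries. It followed the seeds led by bma-miR-100a_R+1 and bma-miR-36c-3p_R-1_1ss20GA in each. With PC-3p-32064_10 included, its 4 rows held 14794 female and 3084 male reads. The next families in the female library were led by bma-miR-279_R+1 with 8360 reads and bma-miR-2c_R+1_1ss1CT with 7436. In the male library the same pair followed in the other order, with 2733 reads for the miR-2c seed and 2523 for the miR-279 seed. Without the candidate entries the miR-81 seed had rank 4 in the male library.

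miR-81a, the main guide strand of the family here, was read 10648 times in the female and 1887 times in the male library. By reads it ranked 4 among all entries of the female and 7 among those of the male library. Its share of all reads was 3.64% (3.57 to 3.71) in the female library against 2.52% (2.41 to 2.63) in the male, so that the female-to-male ratio was 1.44 (1.37 to 1.52). Over worm reads the shares were 3.90% and 5.19%, a ratio of 0.751 (0.716 to 0.790). Among the 83 worm entries read in both libraries with at least 10 reads in 1 of them, 46 had a lower ratio, so miR-81a stood near the middle. Its ratio was 1.17 times the median of those entries, a comparison that no scaling between the libraries can move.

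miR-81b, with the same seed and another 3′ end, had 1861 female and 405 male reads. As shares of all reads these were 0.636% (0.607 to 0.665) for females and 0.541% (0.490 to 0.596) for males, giving a ratio of 1.18 (1.06 to 1.31). Over worm reads the shares were 0.681% and 1.11%, a ratio of 0.612 (0.549 to 0.683). Of the 83 worm entries 40 had a lower ratio, and miR-81b lay at 0.954 times their median.

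The candidate PC-3p-100_2763 was on the male side of both other 3p members. It had 2267 female and 792 male reads, or 0.774% (0.743 to 0.807) of the female total and 1.06% (0.986 to 1.13) of the male total. The male share was 1.37 times the female share (1.26 to 1.48) when all reads were counted and 2.62 times (2.42 to 2.85) per worm read, whereas the authors' normalized values, 2478 and 725, put it 3.42-fold higher in the female. Of the 83 worm entries 27 had a lower ratio. Its ratio was 0.594 times their median. Among the 43 predicted candidates of the table it had rank 1 by reads in the male library, with 24.3% (22.8 to 25.8) of all candidate reads, and rank 3 in the female library, with 13.2% (12.7 to 13.7). In both libraries the order of levels was miR-81a, the candidate, miR-81b and the miR-80 5p arm, and the counting intervals of no 2 neighbours in that order overlapped.

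**Figure D1:**
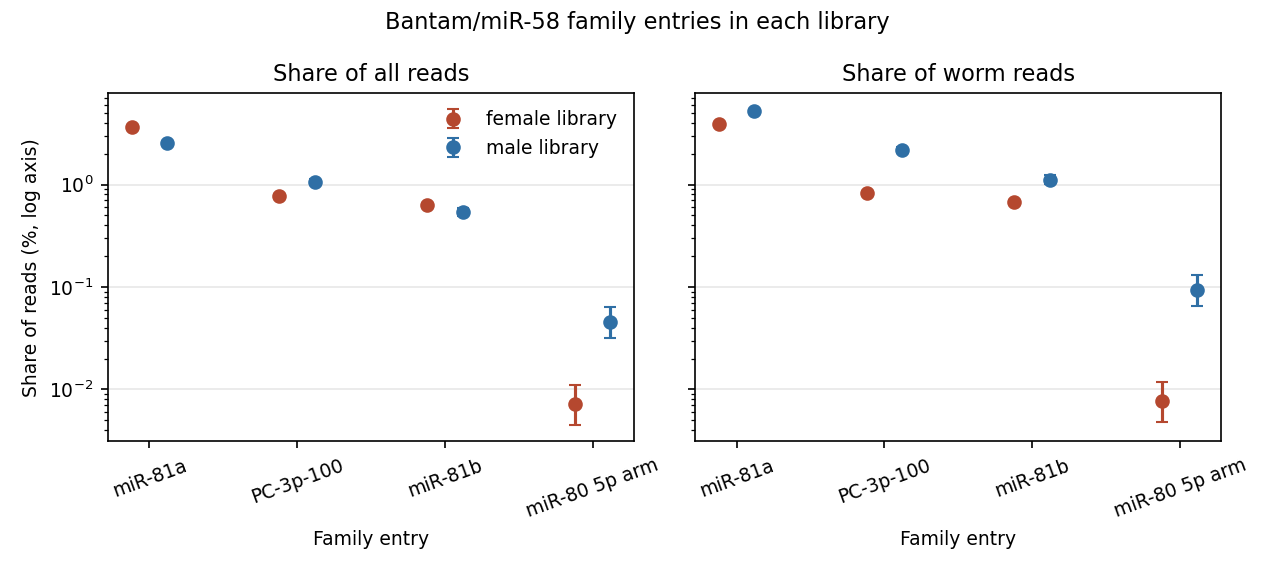
Share of all reads (left) and of worm reads (right) for each family entry in the female and male library, in percent on a log axis; points are the deposited reads over the total and bars are exact 95% counting intervals, which for most points are smaller than the symbol. miR-81a is the highest entry of each library in both panels, at 2.52% to 5.19%. The candidate PC-3p-100_2763 and the miR-80 5p arm are higher in the male library in both panels. miR-81a and miR-81b are higher in the male library in the right panel only. The miR-80 5p arm lies far below the rest.

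Within the family, the balance between paralogs differed between the libraries, and this comparison does not depend on any scaling. miR-81a made up 72.0% (71.2 to 72.7) of the family's reads in the female and 60.5% (58.8 to 62.2) in the male library. The candidate made up 15.3% (14.7 to 15.9) and 25.4% (23.9 to 27.0). miR-81b held nearly the same part, 12.6% (12.0 to 13.1) and 13.0% (11.8 to 14.2). There were 4.70 reads of miR-81a for each read of the candidate in the female library and 2.38 in the male, a quotient of 1.97 (1.79 to 2.17). For miR-81a against miR-81b these were 5.72 and 4.66, a quotient of 1.23 (1.09 to 1.38). For miR-81b against the candidate, the pair closest in sequence, they were 0.821 and 0.511, a quotient of 1.61 (1.40 to 1.84). The intervals of these last 2 quotients did not overlap, so miR-81b stood further from its closest relative in sequence than from miR-81a in how the libraries differed.

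**Figure D2:**
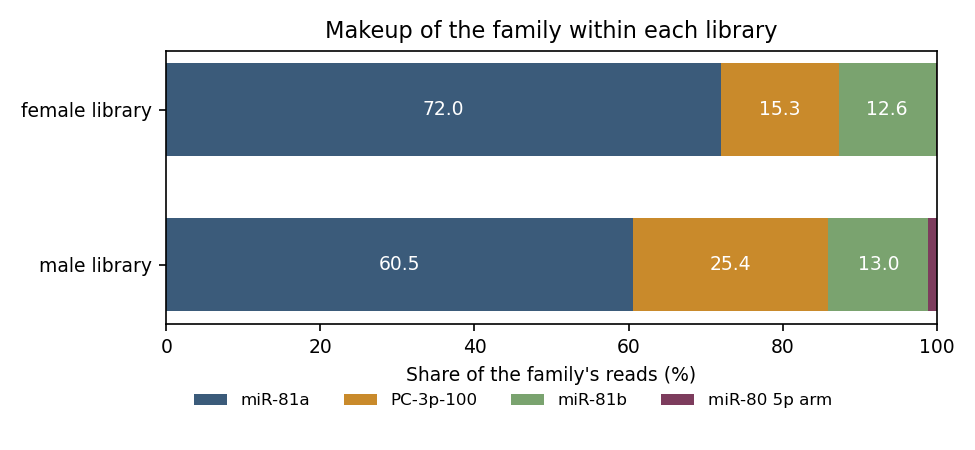
Makeup of the family's reads in the female and male library, in percent, with each bar summing to 100; no error is drawn, and the numbers are the shares of the larger members. miR-81a covers 72.0% of the female and 60.5% of the male bar, the candidate 15.3% and 25.4%, and the miR-80 5p arm, at 0.142% and 1.09%, shows only in the male bar.

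A spread of this size between members with one seed was not unusual in the table. Among worm entries with at least 100 reads in 1 library, 7 seeds had 2 or more distinct sequences read in both libraries. The ratio of the highest over the lowest member was 1.97 for the miR-81 seed, which was rank 4 of these 7 from the widest. The narrower seeds were those of miR-36c at 1.01, asu-miR-83-3p_1ss20CT at 1.52 and miR-100a at 1.64, and the ratio reached 49.3 for the seed shared by bma-miR-45 and bma-miR-279_R+1 at the wide end.

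The 5p arm of miR-80 was rare in both libraries and had the lowest female-to-male ratio of the family. cel-miR-80-5p_1ss13GC had 21 female reads (95% Poisson interval 13.0 to 32.1) and 34 male reads (23.5 to 47.5). Although the male library held fewer reads in all, it held more of this strand. Its shares of all reads were 0.00717% in females and 0.0454% in males, which is 6.33-fold more in the male library (3.57 to 11.5). Per worm read the excess was 12.2-fold (6.86 to 22.0). On the authors' values it had 23.0 and 31.1, a female-to-male ratio of 0.738 (0.407 to 1.31). Of the 83 worm entries 3 had a lower ratio, and the 5p arm lay at 0.128 times their median. Per 1000 reads of the family, 1.42 (0.879 to 2.17) were of this arm in the female and 10.9 (7.56 to 15.2) in the male library. Its ratio to miR-81a was 9.14 times lower in the female library (5.14 to 16.6), a comparison free of scaling that rests on 55 reads. No row carried the 3p arm of miR-80 by name, so the arms of miR-80 itself were not compared.

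The opposite-arm strand that carries a miR-81 name was too rare to compare between the libraries. bma-mir-81-p5_1ss12AG had 14 female and 0 male reads. In the female library this was 0.947 per 1000 reads of it and the 3p members (0.518 to 1.59). For 0 of 3084 male reads the upper limit was 1.20 per 1000, so the intervals overlapped and no difference was detectable. Likewise PC-3p-32064_10 had 18 female reads, 0.958% of the reads of it and miR-81b (0.569 to 1.51). It had 0 male reads beside 405 of miR-81b, with an upper limit of 0.907%. Of the 16 rows spelled in this lower-case way, 10 were at 0 in the male library and 1 in the female. Their female reads had a median of 13, so such low counts were common among them.

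Predicted pairing placed both 5p strands nearer to miR-81a than to the other 3p members. With RNAduplex, cel-miR-80-5p_1ss13GC and asu-miR-81a formed 14 base pairs at -13.5 kcal/mol and left 2 bases of miR-81a unpaired at its 3′ end. With miR-81b and the candidate the energies were -3.4 and -3.1 kcal/mol. Among the 126 other distinct worm sequences of the table, the pairing with miR-81a had rank 2 from the lowest energy, level with bma-miR-72 and after PC-3p-457_786 at -13.7. For bma-mir-81-p5_1ss12AG the energies were -19.6 with miR-81a over 17 base pairs, -15.8 with the candidate and -11.5 with miR-81b, again with 2 bases of miR-81a free at the 3′ end. bma-miR-124_R-1 paired more strongly with it at -21.4, so the prediction does not single out a partner. These energies describe the letters of the strands, and the hairpins themselves were not examined.

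How many of the 4 entries were far from an equal share depended on the scale. An entry was called male-high or female-high when its share differed 2-fold or more, given 10 or more reads in 1 library. As shares of all reads, 1 of the 4 entries, the miR-80 5p arm, was male-high, beside 62% of the 287 eligible entries of the table and 18.8% of its 112 eligible worm entries. None of the 4 was female-high, beside 18.5% of all eligible entries and 35.7% of the worm entries. As shares of worm reads, 2 of the 4, the 5p arm and the candidate, were male-high, beside 33.9% of the worm entries, and none was female-high, beside 8.04%. On the authors' values the 3 members of the 3p arm were female-high, beside 85.7% of worm entries, and none was male-high, beside 5.36%. With 4 entries these counts do not set the family apart. The median ratio of the 4 was 0.954 over all reads, beside 1.29 for the other 79 worm entries read in both libraries. The middle part of all 83 such entries, from the lower to the upper quartile, ran from 0.582 to 2.17. miR-81a, miR-81b and the candidate lay inside that range and the 5p arm outside it.

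**Figure D3:**
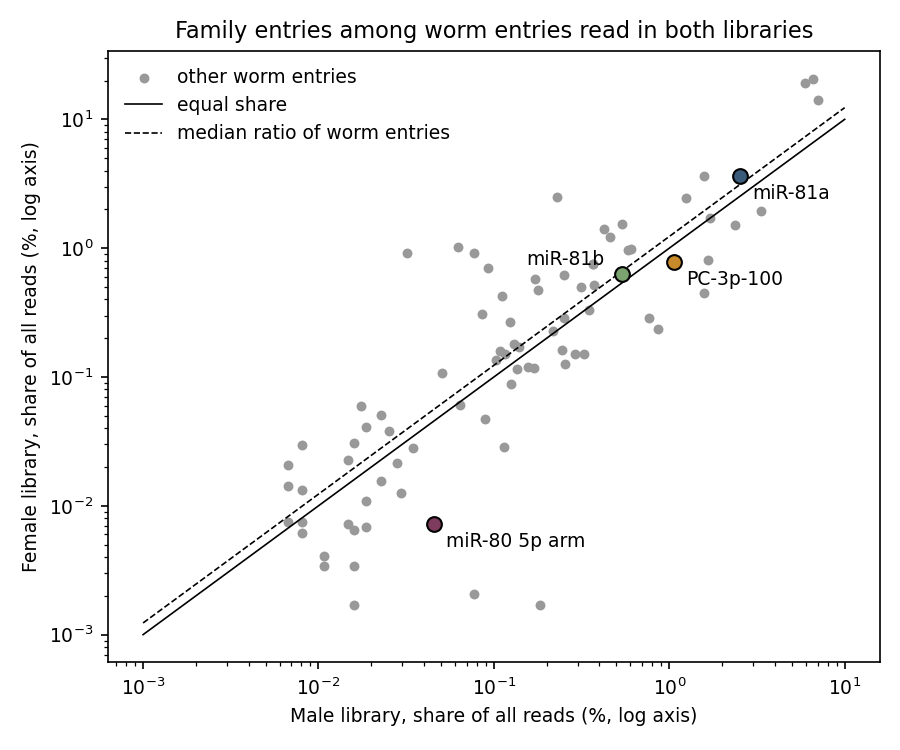
Share of all reads in the female library against the male library, in percent on log axes, for the 83 worm entries read in both libraries with at least 10 reads in 1 of them; each point is an entry, the full line marks an equal share and the dashed line the median ratio of 1.23. miR-81a, miR-81b and the candidate PC-3p-100_2763 (labelled without its last number) lie close to both lines, and the miR-80 5p arm lies well below them with 3 entries at a lower ratio.

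The entries whose levels most resembled those of miR-81a were found by the distance between log2 shares over the 2 libraries. bma-miR-100b_R+1 was the nearest at 0.67, with 3.62% of female and 1.58% of male reads. bma-miR-279_R+1 followed at 1.00, with 1.93% and 3.34%, and bma-miR-100c_R+2_1ss12CT at 1.17, with 2.46% and 1.24%. The nearest entry had nearly the female share of miR-81a, and its ratio of 2.29 was higher than the 1.44 of miR-81a.

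Each of the 7 scales tried multiplies all ratios by 1 constant, so it moves the members together and cannot change their order. The 3p members were on the female side with TMM, median-of-ratios scaling and the authors' values, and on the male side per worm read or per nematode-named read. The ratio of miR-81a ran from 0.730 to 9.62 over these scales, that of the candidate from 0.370 to 4.88, and that of the 5p arm from 0.0799 to 1.05.

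**Figure D4:**
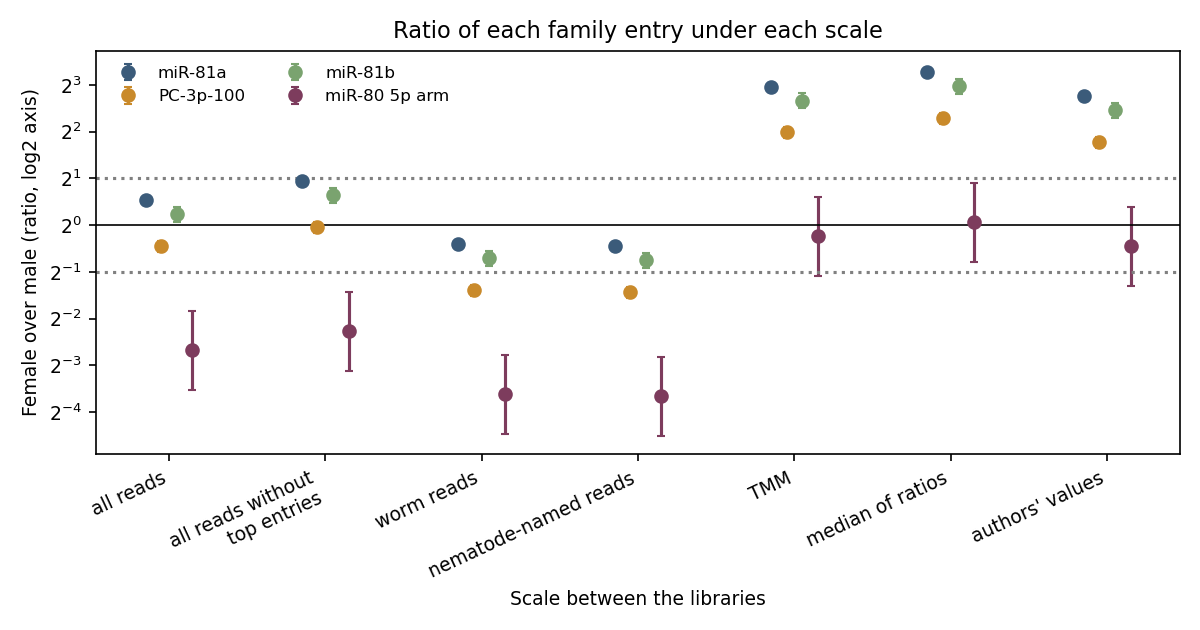
Female-to-male ratio of each family entry on 7 scales between the libraries, on a log2 axis, with exact 95% counting intervals as bars; the full line marks 1 and the dotted lines a 2-fold difference in either direction. Because each scale multiplies all ratios by 1 constant, the order within a column is fixed, and the whole group shifts from ratios of 0.0799 to 0.730 per nematode-named read to 1.05 to 9.62 with median-of-ratios scaling.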

How the data were processed

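Small RNA of 2 libraries was compared, 1 female and 1 male. The authors deposited a table of 384 entries with estimated counts per library, and a normalized signal equal to the count times 1.09 (female) or 0.915 (male); the aligner, the genome and the reason for these constants were not given in the sources used here. Per the labels' protocols, the libraries came from a TruSeq small RNA kit. Parts of reads stood on 126 entries and on 0 of the family. Columns of per-sample values left unused numbered 0. Shares were taken of all deposited reads and of nematode-named plus candidate (PC) reads. Intervals and TMM used rounded counts.

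Shares carry exact binomial (Clopper-Pearson) 95% intervals, ratios the conditional binomial interval, quotients the conditional odds ratio interval, and counts Poisson intervals (scipy 1.17.1). PCR copies were not told apart from molecules, so intervals and floors cover counting error only. An entry at 0 was set to 3 reads, 0.00102% of the female and 0.00401% of the male total, and was never called higher in that library. With 1 library per sex no test was possible. Entries were called at a 2-fold difference with at least 10 reads in 1 library. Scaling used edgeR 4.0.16, and pairing RNAduplex of ViennaRNA 2.7.2 with lone pairs left out. The interval and the calls were tested on simulated counts drawn with Poisson error alone, which does not cover variation between libraries. Entries named were the members, rows sharing a seed or arm with them, the 3 worm entries nearest to miR-81a (0.5 reads added) and neighbouring seed families. A number in a name had to end there, so that miR-5866 is not miR-58. In the 3 family-named rows whose suffix gives a single substitution, the deposited sequence held the suffix's last letter at the stated position. The members, lists and rules were chosen with earlier results of these data known. The values of the within-seed spread, the candidate ranking, the pairing and the lower-case rows were chosen after seeing the data.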

Additional observations from a re-analysis of the deposited data

How the results depend on the processing

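The family's female-to-male ratio of 1.21 became 0.632 over nematode-named plus candidate reads and 0.614 over nematode-named reads, 6.55 with TMM, 8.09 with median-of-ratios scaling, 5.67 on the authors' values, 1.61 with the most abundant entry of each library left out of the totals, and 1.38 without the candidate. The ratio of the miR-80 5p arm turned to 1.05 (0.581 to 1.87) with median-of-ratios scaling. Each of these scalings multiplies every ratio by 1 constant. Without the candidate miR-81a held 85.0% of the female and 81.1% of the male family reads. The count of family entries at least 2-fold apart was 1 of 4 in the report. It was 2 over nematode-named plus candidate or nematode-named reads, and 3 with TMM, median-of-ratios or the authors' values. Of the 112 eligible worm entries, 54.5% were called in either direction over all reads, 42% over worm reads and 91.1% on the authors' values. For all 287 eligible entries these shares were 80.5%, 74.2% and 70%. Under a minimum of 100 reads the count was 0, because the miR-80 5p arm, with 21 and 34 reads, was no longer eligible. Of the same 287 eligible entries, the 53 higher in the female library became 16 on both worm scales and 117 with TMM. They became 119 with median-of-ratios scaling, 114 on the authors' values and 22 with intervals wholly past 2-fold. The 178 male-high entries of the 287 became 197 over nematode-named plus candidate reads and 198 over nematode-named reads. They fell to 64 with TMM, 36 with median-of-ratios scaling and 87 on the authors' values. A minimum of 100 reads, which left fewer entries eligible, gave 28 female-high and 65 male-high entries. The male rank of the miR-81 seed was 4 among nematode-named rows, an alternative added after seeing the data. Of the remaining values for single entries, 22 moved beyond their interval and 5 did not. Among the 5 was the merging of identical sequences for each member, which could not move a value, since no member's sequence was repeated. Besides these it was only the miR-80 5p arm with the most abundant entries left out of the totals, at 0.210. No paired analysis was possible because each sex had 1 library, and no library could be left out.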
